A study of Homo sapiens with 6 samples.

Results

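The genes described here move lactate and protons across the plasma membrane or sense acid outside the cell. They are 8 genes of the 25330 gene symbols in the count table: the monocarboxylate transporter genes SLC16A1, SLC16A3, SLC16A6 and SLC16A7, the transporter chaperone gene BSG, the bicarbonate transporter gene SLC4A7, and the proton-sensing receptor genes GPR65 and GPR4. They were named as a list for their functions and for their read counts in the comparison described below, so their differences between the groups are given as a description. Where such a gene is said to be past a threshold, that is its place in a fit across all genes and supports nothing further. The study sequenced poly-A RNA of the triple-negative breast cancer cell line MDA-MB-231, an established human line, in 2 groups of 3 libraries. The control group carried the label CTRV2 control and the knockout group the label RNASEH2A KO. RNASEH2A encodes the catalytic subunit of ribonuclease H2, the enzyme that cuts out ribonucleotides left in the genome and breaks down RNA paired with DNA. The cells grew in RPMI-1640 medium with 10% fetal bovine serum with no treatment, every library carried the same batch label, and the 3 libraries of a group came from different passages. The SDs, SEs and p-values below therefore measure the spread between passages. The labels do not say whether the knockout line was 1 clone or a pool.

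Cells that ferment glucose export lactate together with protons. Monocarboxylate transporters carry the pair: MCT4 (SLC16A3) has a low affinity suited to export, MCT1 (SLC16A1) works in either direction, MCT2 (SLC16A7) has a high affinity for lactate and pyruvate, and MCT7 (SLC16A6) is known as a ketone body exporter. MCT1 and MCT4 need basigin (BSG, CD147) to reach the membrane, whereas MCT2 prefers the related protein embigin (EMB). NBCn1 (SLC4A7) brings sodium and bicarbonate into the cell and so neutralises acid, and is known for this role in breast cancer cells. GPR65 (TDAG8) and GPR4 are G protein-coupled receptors that are activated by extracellular protons and raise cyclic AMP. GPR65 is best known from lymphoid and myeloid cells and GPR4 from endothelium. MDA-MB-231 is known as a line with little MCT1 that relies on MCT4.

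Library totals ranged from 25419877 to 31596286 counts, so that 3 counts, taken here as the detection floor, corresponded to 0.0934 to 0.119 counts per 1000000 library counts (CPM). Levels are given in CPM on the scale of edgeR's trimmed-mean normalisation, and fold changes are log2 ratios of knockout to control from edgeR. RNASEH2A itself had 10, 6 and 15 counts in the controls and 7, 8 and 16 in the knockout. It was near the floor in both groups, and 30.8% of its exonic bases are shared with THSD8 on the same strand, so its counts do not check the labels. Knockout replicate 1 stood apart from the other knockout libraries: the chi-square per degree of freedom over genes was 37.0 and 24.0 against replicates 2 and 3, compared with 6.93 between replicates 2 and 3. Among the controls these values were 12.1, 10.8 and 2.48, the lowest being between replicates 2 and 3. The 8 genes are therefore given with and without knockout replicate 1. Of 32 other genes past the threshold that were named by the rules given under processing, all 32 kept their direction and call without it. Only KCNK1 moved by more than 1.5-fold. Leaving this library out raised the calls over all genes from 1718 to 3430, so a kept call is a weak check here. Of the 32, 21 missed the threshold in at least 1 alternative analysis.

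The starts of 4 of the genes are shown first. GPR65 and SLC16A7 had the largest log2 fold changes of the 8, and SLC16A3 and BSG had the highest levels. Each sequence is the 250 bases before a RefSeq transcript start (GRCh38.p14), 5′ to 3′ on the gene's strand, with every CG dinucleotide in capitals. Which of a gene's starts was in use was not measured.

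GPR65 chr14:88004885-88005134, plus strand: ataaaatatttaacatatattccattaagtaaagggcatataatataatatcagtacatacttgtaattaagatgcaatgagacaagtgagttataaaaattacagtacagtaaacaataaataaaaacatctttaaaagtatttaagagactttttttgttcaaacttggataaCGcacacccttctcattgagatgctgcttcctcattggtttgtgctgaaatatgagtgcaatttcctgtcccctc

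SLC16A7 chr12:59595779-59596028, plus strand: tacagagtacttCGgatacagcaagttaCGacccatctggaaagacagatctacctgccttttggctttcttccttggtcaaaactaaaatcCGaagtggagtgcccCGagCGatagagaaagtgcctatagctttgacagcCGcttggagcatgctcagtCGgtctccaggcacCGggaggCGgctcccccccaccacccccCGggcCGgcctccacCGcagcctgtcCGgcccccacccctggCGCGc

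SLC16A3 chr17:82228792-82229041, plus strand: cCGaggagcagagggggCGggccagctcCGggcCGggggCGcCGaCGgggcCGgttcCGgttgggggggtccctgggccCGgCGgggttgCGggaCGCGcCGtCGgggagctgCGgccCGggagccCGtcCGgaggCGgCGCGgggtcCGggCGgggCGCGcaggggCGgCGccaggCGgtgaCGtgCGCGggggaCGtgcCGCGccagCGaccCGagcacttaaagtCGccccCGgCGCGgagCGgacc

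BSG chr19:572346-572595, plus strand: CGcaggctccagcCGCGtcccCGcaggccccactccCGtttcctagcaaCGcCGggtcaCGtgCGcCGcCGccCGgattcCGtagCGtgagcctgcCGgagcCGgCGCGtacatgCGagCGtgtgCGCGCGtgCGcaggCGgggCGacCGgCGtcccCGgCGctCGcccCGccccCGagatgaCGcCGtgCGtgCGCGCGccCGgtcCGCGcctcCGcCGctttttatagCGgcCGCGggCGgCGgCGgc

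The GPR65 window held 1 CG dinucleotide and was 29.6% G or C. Of all 35116 RefSeq promoter windows of this length, 6.06% held fewer CG dinucleotides, and the median was 11. The SLC16A7 window held 15 and was 60.4% G or C. The windows of the abundant genes were far richer, with 43 in SLC16A3 and 50 in BSG. SLC16A7 has a further RefSeq start at chr12:59689120-59689369 with 1 CG dinucleotide, and SLC16A3 has 4 further starts and BSG 1, with 10 to 20. For each of these genes the window shown is the one with the most CG dinucleotides.

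A pair of short motifs was searched on both strands: the core ACGTG, bound by hypoxia-inducible factors, and TGACG, a half-site for cyclic AMP response factors. ACGTG occurs in 18.5% and TGACG in 21.2% of all windows. Both motifs contain a CG dinucleotide, and these shares were not matched to the CG content of the windows shown. Neither motif lies in the windows shown for GPR65 and SLC16A7. The SLC16A3 window holds ACGTG at 68 to 64 and at 55 to 51 bases before the start, and a TGACG at 70 to 66 that overlaps the first of them. The BSG window holds ACGTG on both strands in overlapping copies, at 192 to 188 and 193 to 189 bases before the start, and TGACG at 70 to 66. These matches describe letters only, and no binding was measured.

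**Figure D1:**
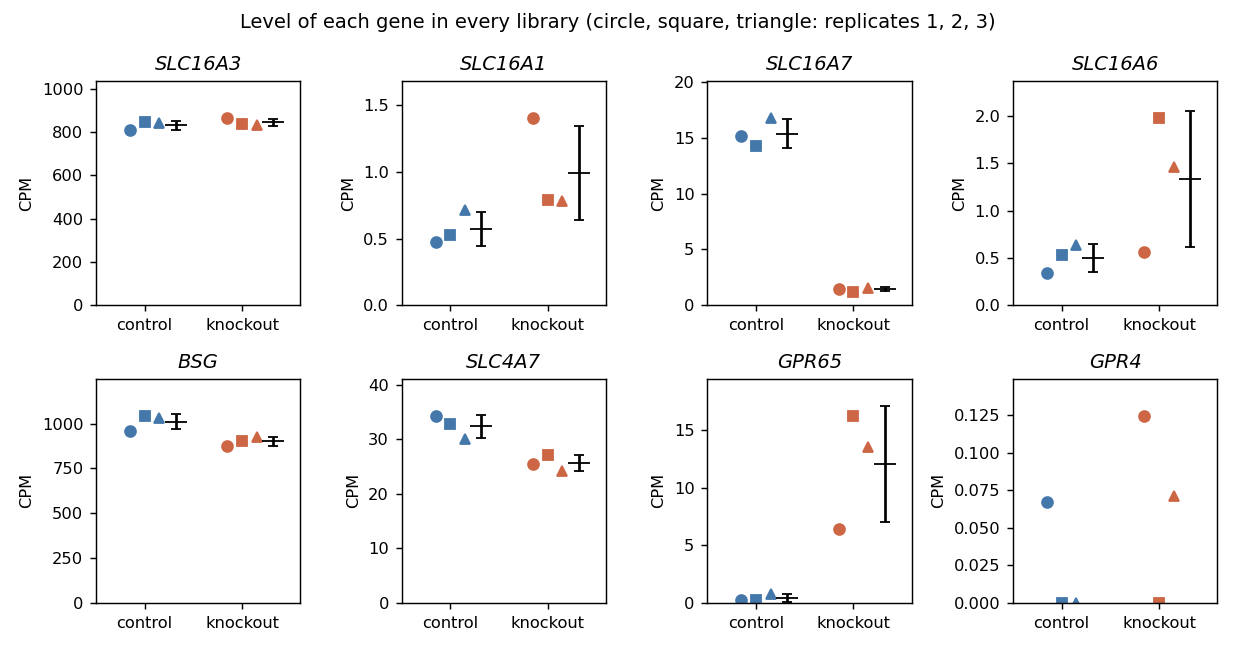
Level of each of the 8 genes in CPM (vertical axes, each starting at 0) in the 3 control (blue) and 3 knockout (red) libraries, with the mean and SD in black (not drawn for GPR4, which was at or near the floor of 3 counts). SLC16A7 fell from about 15 to 1.43 CPM, GPR65 rose from 0.425 to 12.1 CPM, and SLC16A3 lay between 807.6 and 862.7 CPM in all 6 libraries.

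Of the 8 genes, 7 had enough counts to enter the fit and GPR4 did not. By edgeR's quasi-likelihood test with Benjamini-Hochberg adjustment, 3 of the 7 were past an adjusted p of 0.05: GPR65 was higher, and SLC16A7 and SLC4A7 were lower. The other 4 (SLC16A1, SLC16A3, SLC16A6 and BSG) were not past it. Of all 14199 genes tested, 12.1% were past it, 5.88% higher and 6.22% lower in the knockout. The control and knockout libraries did not overlap for 5 of the 7, compared with 33.5% of all genes tested. Because the genes were chosen on this comparison, nothing is read from these shares. Without knockout replicate 1, 5 genes were past the threshold, SLC16A6 and BSG being added. The median log2 fold change of the 7 was 0.02, and that of all genes was 0.00.

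SLC16A3, the gene for the exporter MCT4, lies at chr17:82228397-82261129 on the plus strand (GRCh38, GENCODE annotation). Per kilobase it had the highest level of the 14 SLC16 genes, as given below. Its level was 807.6, 845.2 and 841.5 CPM in the controls and 862.7, 838.0 and 832.0 CPM in the knockout. The groups overlapped, and the means of 831.4 ± 20.7 and 844.2 ± 16.3 CPM (SD, n = 3 each) differed by less than the spread between libraries. The log2 fold change was 0.02 ± 0.05 (SE), and it lay between 0.00 and 0.04 under the 14 alternative analyses. An exon of CSNK1D on the opposite strand shares 5.4% of its exonic bases.

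SLC16A1, the gene for MCT1 (chr1:112911847-112957013, minus strand), was scarcely detected. It had 14, 15 and 18 counts in the controls and 45, 22 and 22 in the knockout. These correspond to 0.472, 0.526 and 0.714 CPM in the controls and to 1.40, 0.791 and 0.785 CPM in the knockout. All knockout libraries were above all controls, with knockout replicate 1 highest and the nearest pair of libraries close together. The log2 fold change was 0.81 ± 0.37 with all libraries and 0.47 without knockout replicate 1. It was not past the threshold in any of the 13 alternatives that tested it.

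SLC16A7, the gene for the high-affinity transporter MCT2, lies at chr12:59596067-59789855 on the plus strand. It had 450, 406 and 422 counts in the controls and 48, 34 and 44 in the knockout. Its level was 15.2, 14.2 and 16.7 CPM in the controls and 1.495, 1.22 and 1.57 CPM in the knockout. The groups were far apart, and every knockout library lay well below every control library. The mean fell from 15.4 ± 1.26 to 1.43 ± 0.18 CPM, a log2 fold change of -3.42 ± 0.15. It was -3.46 without knockout replicate 1 and between -3.49 and -3.32 over all 14 alternatives. The gene was still detected in each knockout library, above the floor of 3 counts.

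SLC16A6, the gene for MCT7 (chr17:68267026-68291267, minus strand), was also close to the limit of detection. It had 10, 15 and 16 counts in the controls and 18, 55 and 41 in the knockout. The levels were 0.338, 0.526 and 0.635 CPM in the controls and 0.561, 1.98 and 1.46 CPM in the knockout. Knockout replicate 1 lay among the controls, and the other knockout libraries lay above them. The log2 fold change was 1.41 ± 0.49 with all libraries and 1.79 without knockout replicate 1. SLC16A6 shares 9.5% of its 50-base words with the pseudogene SLC16A6P1, which had 0 counts in every library, and 3.5% of its exonic bases with ARSG on the opposite strand.

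BSG, the gene for basigin, the chaperone of MCT1 and MCT4, lies at chr19:571277-583493 on the plus strand. Its level was 961.2, 1041.5 and 1030.8 CPM in the controls and 872.7, 900.4 and 927.5 CPM in the knockout. The knockout libraries were all below the controls, but the gap between the groups was smaller than the range within either group. The means were 1011 ± 43.6 and 900.2 ± 27.4 CPM, and the log2 fold change was -0.17 ± 0.06. It was -0.14 without knockout replicate 1 and between -0.21 and -0.14 over 14 alternatives.

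SLC4A7, the gene for the bicarbonate importer NBCn1 (chr3:27372721-27484420, minus strand), was at a moderate level. It had 34.2, 32.7 and 30.1 CPM in the controls and 25.4, 27.2 and 24.2 CPM in the knockout. Every knockout library lay below every control library. The mean was 32.3 ± 2.10 CPM in the controls and 25.6 ± 1.49 CPM in the knockout, a log2 fold change of -0.34 ± 0.09. The size of the change varied little, from -0.39 to -0.30 over 14 alternatives, and was -0.33 without knockout replicate 1. It was no longer past the threshold when any 1 of control replicates 1, 2 and 3 or knockout replicate 3 was left out.

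GPR65, the gene for the acid-activated receptor TDAG8, lies at chr14:88005124-88014811 on the plus strand. It had 8, 6 and 20 counts in the controls and 206, 451 and 379 in the knockout. The levels were 0.270, 0.210 and 0.794 CPM in the controls and 6.42, 16.2 and 13.5 CPM in the knockout. The groups were far apart. Within the groups, knockout replicate 1 was the lowest of the knockout libraries and control replicate 3 the highest of the controls. The mean rose from 0.425 ± 0.321 to 12.1 ± 5.06 CPM, a log2 fold change of 4.85 ± 0.48. It was 5.16 without knockout replicate 1 and 5.62 without control replicate 3, and lay between 4.53 and 5.62 over 14 alternatives. Transcripts antisense to GPR65 cover 5.2% of its exonic bases. The summed level of leukocyte markers, described at the end, was also higher in the knockout libraries through LAPTM5 and LCP1, with the pan-leukocyte gene PTPRC at 0 in them.

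GPR4, the gene for the endothelial proton receptor (chr19:45589764-45602208, minus strand), was at the limit of detection. It had 2, 0 and 0 counts in the controls and 4, 0 and 2 in the knockout. No fold change is given, since only 1 library exceeded the floor of 3 counts, and the levels did not go above 0.125 CPM. A share of 3.6% of its exonic bases belongs also to OPA3 on the same strand.

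**Figure D2:**
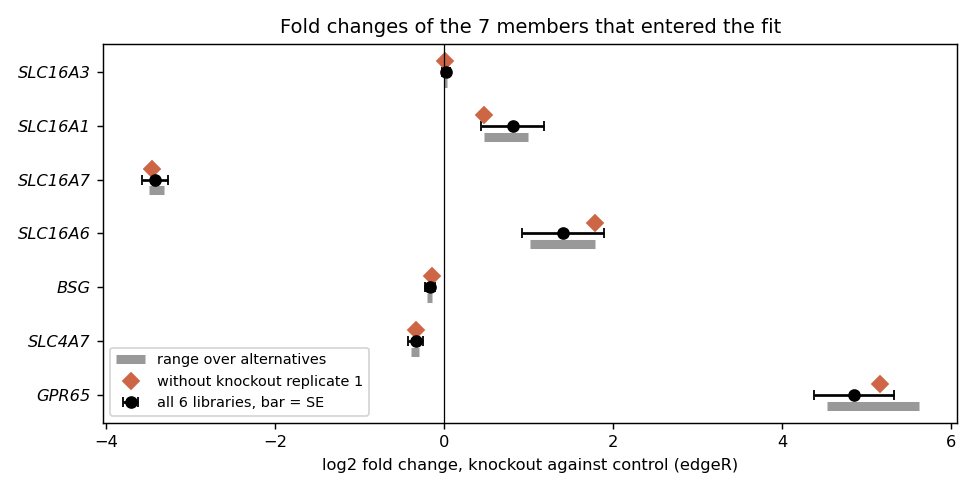
Log2 fold change of knockout against control (horizontal axis) for the 7 genes in the fit, with the SE (bars), the value without knockout replicate 1 (red) and the range over the alternative analyses (grey). SLC16A7 lies at -3.42 and GPR65 at 4.85, with ranges far from 0, while SLC16A3 lies at 0.02.

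Levels of different genes were compared per kilobase of exonic length. In the controls BSG was highest, at 266.3 ± 11.5 CPM per kb, followed by SLC16A3 at 92.4 ± 2.31, SLC4A7 at 3.36 ± 0.22 and SLC16A7 at 1.13 ± 0.09 CPM per kb. The ranges of these 4 genes were separate from one another. SLC16A6 at 0.123, SLC16A1 at 0.107 and GPR65 at 0.0939 CPM per kb overlapped in the controls, and GPR4 was lowest at 0.00715. In the knockout the leading pair kept its order, with BSG at 237.1 ± 7.21 and SLC16A3 at 93.9 ± 1.81 CPM per kb. GPR65 moved from the overlapping low group to 2.66 ± 1.12 CPM per kb, a range that overlapped that of SLC4A7 at 2.66 ± 0.15. Counted on the longest coding transcript instead, a length chosen after the data were seen, SLC4A7 was at 3.21 CPM per kb, above the mean of GPR65. SLC16A7 moved down to 0.104 ± 0.013 CPM per kb, below SLC16A1 at 0.187 and SLC16A6 at 0.328.

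Within the SLC16 family, MCT4 transcripts dominated both groups. SLC16A3 made up 87.6% to 89.9% of the summed level per kilobase of 14 SLC16 genes over the 6 libraries. The share of SLC16A7 was 1.11%, 0.990% and 1.15% in the controls and 0.101%, 0.0856% and 0.109% in the knockout. SLC16A1 took 0.0891% to 0.127% in the controls and 0.140% to 0.243% in the knockout. SLC16A7 thus held a small part of the family's transcripts in the controls and a smaller one in the knockout.

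**Figure D3:**
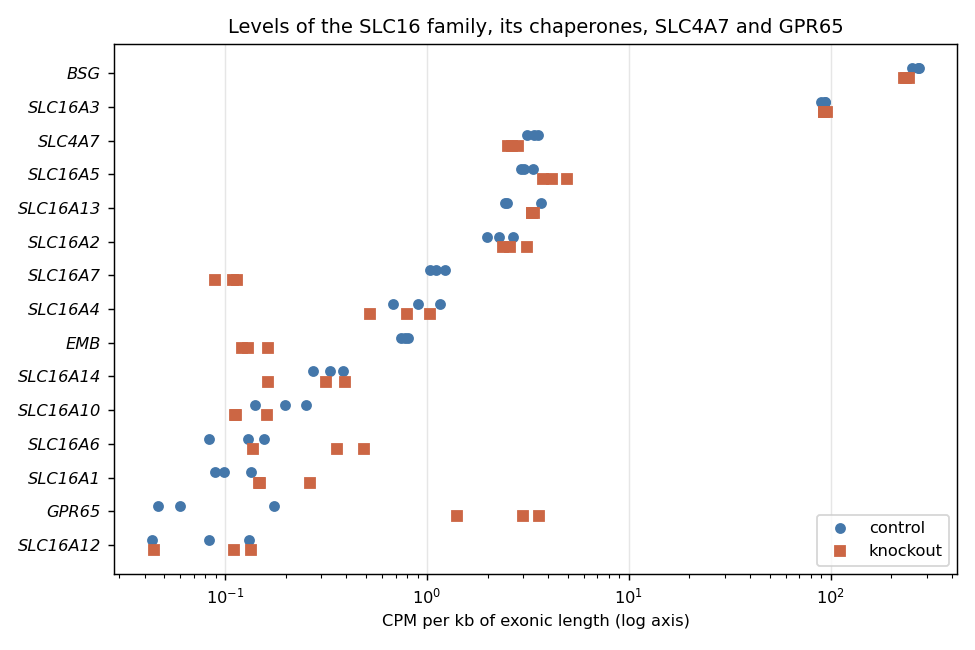
Level per kilobase of exonic length (log axis, CPM per kb) in the control (blue) and knockout (red) libraries for genes of the SLC16 family, the chaperones BSG and EMB, SLC4A7 and GPR65. Genes with a level of 0 in any library were left out, among them SLC16A8, SLC16A9 and SLC16A11. BSG and SLC16A3 lie far above the next genes, and SLC16A7, EMB and GPR65 have groups that are far apart.

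Among the other monocarboxylate transporter genes and EMB, 8 of 13 listed genes were tested: 1 rose, 1 fell and 6 did not pass the test. Their median log2 fold change was 0.01. EMB, the chaperone preferred by MCT2, fell (chr5:50396192-50443248, minus strand). Its level was 4.12, 3.93 and 4.25 CPM in the controls and 0.685, 0.863 and 0.642 CPM in the knockout, with no overlap between the groups. The log2 fold change was -2.48 ± 0.22 (edgeR adjusted p = 0.000336), -2.44 without knockout replicate 1, and it passed the test under all 14 alternatives. EMB, SLC16A7 and BSG were each lower in every knockout library than in any control, with log2 fold changes of -2.48, -3.42 and -0.17. Of all genes tested, 33.5% likewise had groups that did not overlap, in either direction, and BSG was not past the threshold. The 10 nearest tested genes around BSG, 5 on either side, had a median log2 fold change of -0.30. Of these 10, 4 were past the threshold, all lower, beside 6.22% of all genes tested that were past it and lower. Whether the level of BSG is tied to its neighbours was not tested. EMB shares 24.8% of its 50-base words with the pseudogene EMBP1, which had 45, 43 and 28 counts in the controls and 71, 36 and 48 in the knockout, so that counts could be split between them. SLC16A5, a transporter of diuretic and other organic acids, rose from 9.61 ± 0.66 to 13.2 ± 1.85 CPM (log2 fold change 0.46 ± 0.13, adjusted p = 0.048). That call was lost without control replicate 1, 2 or 3 or knockout replicate 3 (adjusted p 0.104 to 0.191).

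Of 30 listed genes for bicarbonate and proton transport and carbonic anhydrases, 20 were tested: 2 rose, 2 fell and 16 did not pass. Their median was -0.12. NHERF1, a scaffold that anchors sodium-proton exchangers, rose from 72.2, 76.4 and 76.9 CPM to 105.4, 111.8 and 113.1 CPM (log2 fold change 0.55 ± 0.07, edgeR adjusted p = 0.00127) and passed under all alternatives. The other 3 genes past the threshold kept their direction in all 14 alternatives but lost their call without some single libraries. Leaving out control replicate 3 or knockout replicate 3 also lowered the calls over all genes, from 1718 to 550 and 524 respectively. SLC9A7, an exchanger of the trans-Golgi network, fell from 129.8 to 92.1 CPM (-0.49 ± 0.10, adjusted p = 0.0128). SLC4A11 fell from 10.1 to 6.48 CPM (-0.64 ± 0.14, adjusted p = 0.0166). SLC4A8, a sodium-driven chloride-bicarbonate exchanger, rose from 1.76 to 3.30 CPM (0.90 ± 0.22, adjusted p = 0.027). Each of these 3 calls was lost without control replicate 3 or knockout replicate 3, and those of SLC4A11 and SLC4A8 also without control replicate 2 (adjusted p 0.0618 to 0.112). The acid-handling carbonic anhydrase gene CA12 had 41.4, 35.9 and 39.1 CPM in the controls and 42.3, 15.7 and 20.6 CPM in the knockout, where replicate 1 was above the controls and the others below them (edgeR adjusted p = 0.244).

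The vacuolar proton pump acidifies lysosomes and endosomes. Of 23 listed subunit genes 20 were tested, of which 5 rose, 1 fell and 14 did not pass, with a median log2 fold change of 0.15. ATP6V1B2, a catalytic-sector subunit, rose from 104.2 to 152.6 CPM (0.55 ± 0.08, edgeR adjusted p = 0.00339). ATP6V1H, a regulatory subunit, rose from 47.9 to 66.8 CPM (0.48 ± 0.08, adjusted p = 0.00468). Both passed under all 14 alternatives. ATP6V0D1, of the membrane sector, rose from 115.2 to 163.3 CPM (0.50 ± 0.10, adjusted p = 0.0112), and ATP6V0E2 fell from 38.4 to 29.7 CPM (-0.37 ± 0.09, adjusted p = 0.0274). These calls were lost without control replicate 3 or knockout replicate 3, and that of ATP6V0E2 also without control replicate 2 (adjusted p 0.0522 to 0.138).

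The enzymes and carriers that make, use or route pyruvate and lactate had 22 of 26 genes tested: 1 rose, 4 fell and 17 did not pass, with a median of -0.15. MPC1, a subunit of the mitochondrial pyruvate carrier, fell from 28.3 to 20.3 CPM (-0.48 ± 0.10, edgeR adjusted p = 0.0125). GPT2, the mitochondrial alanine aminotransferase, fell from 36.8 to 28.1 CPM (-0.39 ± 0.08, adjusted p = 0.0142). PC, pyruvate carboxylase, fell from 139.5 to 106.8 CPM (-0.38 ± 0.08, adjusted p = 0.015). PDK2, a kinase that inhibits pyruvate dehydrogenase, rose from 31.3 to 39.6 CPM (0.34 ± 0.09, adjusted p = 0.0363). All 4 calls were lost without control replicate 2 or 3, that of PC also without knockout replicate 3, and that of PDK2 also without control replicate 1 or knockout replicate 2 or 3 (adjusted p 0.055 to 0.147). The lactate dehydrogenase genes did not pass: LDHA, the form that favours lactate production, had a log2 fold change of -0.10 ± 0.11 (adjusted p = 0.606) and LDHB of -0.28 ± 0.09 (adjusted p = 0.0739). LDHA had 1802.0, 1511.3 and 1536.4 CPM in the controls and 1797.8, 1352.9 and 1367.5 CPM in the knockout. Replicate 1 was thus the highest library for LDHA in each group.

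Other sensors of protons and lactate had 7 of 19 genes tested, of which 2 fell and 5 did not pass, with a median of -0.29. GPR132, a receptor of the same family as GPR65, had 2, 4 and 3 counts in the controls and 10, 6 and 7 in the knockout and was not tested. HCAR1, the lactate receptor, had a log2 fold change of 0.04 ± 0.21 (edgeR adjusted p = 0.929). Of the acid-sensitive potassium channel genes, KCNK1 fell from 1.01, 1.12 and 0.952 CPM to 0, 0.144 and 0.0713 CPM (-3.82 ± 0.60, adjusted p = 0.00445), and was thus at or near the floor in the knockout. Its log2 fold change was -3.21 without knockout replicate 1 and -4.77 without knockout replicate 2. KCNK2 fell from 3.33 to 1.52 CPM (-1.13 ± 0.23, adjusted p = 0.0141), a call lost without control replicate 2 or 3 or knockout replicate 3 (adjusted p 0.0664 to 0.0776).

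GPR65 and GPR4 act through the stimulatory G protein, cyclic AMP and protein kinase A. In this list 33 of 40 genes were tested: 1 rose, 5 fell and 27 did not pass, with a median of -0.06. PRKACA, the main catalytic subunit of protein kinase A, fell from 147.2 to 110.8 CPM (-0.41 ± 0.07, edgeR adjusted p = 0.00659). GNAI3, an inhibitory G protein subunit that lowers cyclic AMP, fell from 232.7 to 180.4 CPM (-0.37 ± 0.06, adjusted p = 0.00513). Both passed under all 14 alternatives. GNAI1, of the same family, fell from 31.5 to 23.8 CPM (-0.41 ± 0.08, adjusted p = 0.0104), a call lost without control replicate 2 or 3 (adjusted p 0.057 to 0.065). GRK2, a kinase that turns off activated receptors, rose from 128.7 to 166.7 CPM (0.37 ± 0.06, adjusted p = 0.00653), a call lost without control replicate 3 (adjusted p = 0.0532). PRKACB, a further catalytic subunit gene, fell from 61.1 to 43.75 CPM (-0.48 ± 0.10, edgeR adjusted p = 0.0144). ARRB2 fell from 34.65 to 25.65 CPM (-0.43 ± 0.10, adjusted p = 0.025). Neither gene was followed through the alternatives. Catalytic subunits that carry the cyclic AMP signal and subunits that restrain it were thus both among the genes that fell.

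Over the 6 lists, 110 of 151 genes were tested, 10 rose, 15 fell and 85 did not pass, with a median log2 fold change of -0.07. The share past the threshold was 22.7%, beside 12.1% of all genes tested. This share counts genes of lists drawn up with earlier results known.

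**Figure D4:**
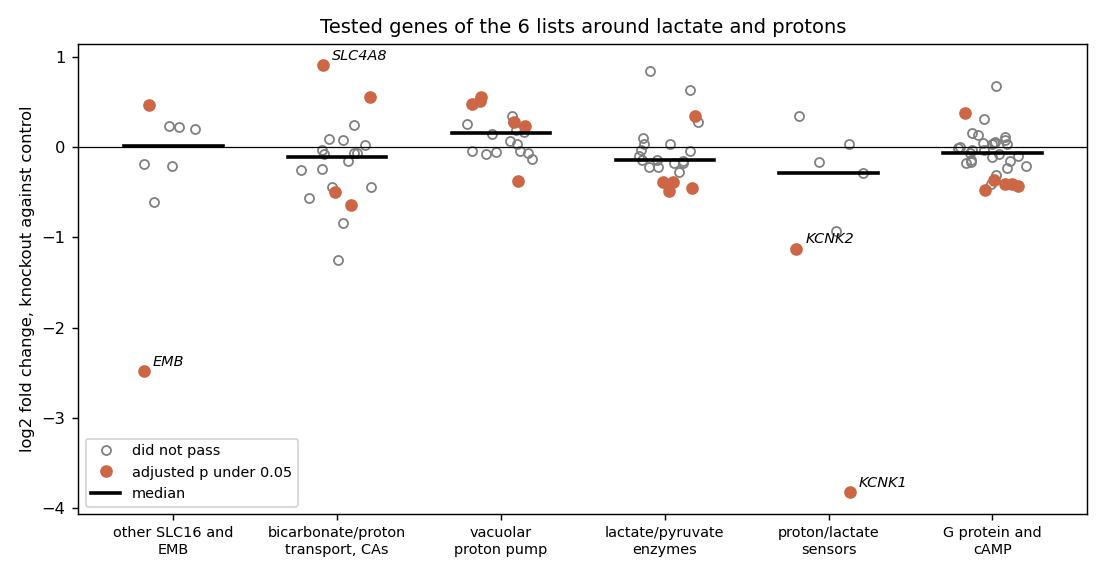
Log2 fold change (vertical axis) of each of the 110 tested genes in the 6 lists, with those past an adjusted p of 0.05 filled and the list medians as black bars. EMB at -2.48 and KCNK1 at -3.82 are the lowest points, and the medians lie between -0.29 and 0.15.

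The genes on either side of GPR65 and SLC16A7 were examined to see how far along the chromosome a difference extended. For each gene the 5 nearest tested genes on either side were taken, so the distances reached differ between the sides. Those of GPR65, from -6829.7 to 819.0 kb, had a median log2 fold change of -0.03, from -0.33 to 0.75. Of these 10 genes, 2 were past the threshold, SEL1L and GALC, both higher, beside 5.88% of all genes tested that were past it and higher. SEL1L, which starts at -6533.6 kb, rose from 159.2 to 191.4 CPM (0.27 ± 0.06, edgeR adjusted p = 0.0211). The nearest, GALC, which encodes a lysosomal galactosidase and starts at -72.1 kb (a minus sign marks the side of lower coordinates), rose from 33.4, 45.9 and 41.1 CPM to 50.5, 78.2 and 73.5 CPM (0.75 ± 0.17, edgeR adjusted p = 0.019). Knockout replicate 1 was the lowest knockout library for GALC as it was for GPR65. Because that library stood apart over all genes, nothing is read from this shared order. The call for GALC was lost without control replicate 1 or 3 or knockout replicate 3 (adjusted p 0.0711 to 0.0997). On the other side SPATA7, 380.5 kb away, had a log2 fold change of -0.08 ± 0.20 (adjusted p = 0.843). Around SLC16A7 the median of its 10 neighbours was -0.18, from -0.55 to 0.14. Its nearest tested neighbours are far: LRIG3, which starts at -723.9 kb, fell from 14.0 to 9.83 CPM (-0.52 ± 0.14, adjusted p = 0.0448), and USP15, at 2664.4 kb, had a log2 fold change of -0.30 ± 0.10 (adjusted p = 0.0764). The call for LRIG3 was lost without control replicate 1, 2 or 3 or knockout replicate 3 (adjusted p 0.0702 to 0.188). No neighbour approached the size of the change in SLC16A7 or GPR65. Around EMB the median was 0.04, from -0.82 to 0.69. Of its 10 neighbours 1 was past the threshold, beside 12.1% of all genes tested. It was the integrin gene ITGA2 (-0.82, edgeR adjusted p = 0.0114), named after its value was seen.

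**Figure D5:**
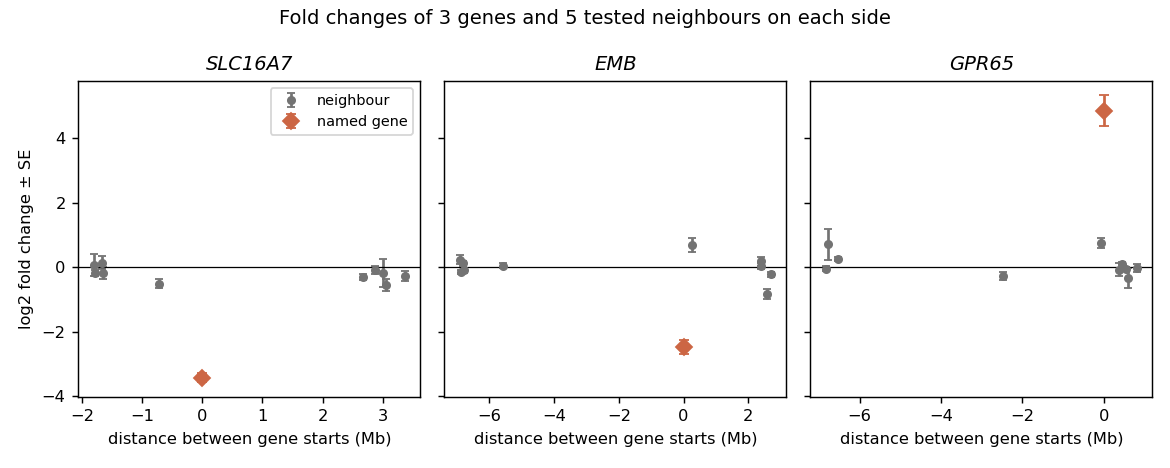
Log2 fold change with SE (vertical axis) of SLC16A7, EMB and GPR65 (red) and of the 5 nearest tested genes on either side of each (grey), by the distance between gene starts in Mb. The neighbours of SLC16A7 lie between -0.55 and 0.14 and those of GPR65 between -0.33 and 0.75; EMB was chosen after its values were seen.

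The genes whose log2 CPM followed GPR65 most closely over the 6 libraries, among those with a mean of at least 1 CPM, were LINC01547 (Pearson r = 0.997), XKR9 (0.995), KCTD5 (0.994), HPS1 (0.994) and LIMK2 (0.992). Their log2 fold changes were small beside that of GPR65, from 0.27 for LIMK2 to 0.56 for LINC01547. XKR9 and LIMK2 were not past the threshold (edgeR adjusted p = 0.0505 and 0.0666). LINC01547, KCTD5 and HPS1 were past it, but each call was lost without at least 1 library (adjusted p 0.0523 to 0.169). For SLC16A7 they were GLB1L2 (0.999), EPRS1 (0.997), DACT2 (0.997), LCMT1 (0.997) and HHIP-AS1 (0.997). Of these, GLB1L2 fell from 5.59 to 0.271 CPM (log2 fold change -4.34 ± 0.25), HHIP-AS1 from 2.94 to 0.613 CPM (-2.25 ± 0.26) and DACT2 from 8.21 to 1.86 CPM (-2.14 ± 0.16). The changes of EPRS1 and LCMT1 were small, with log2 fold changes of -0.27 ± 0.06 and -0.27 ± 0.08. LCMT1 was not past the threshold. The call for EPRS1 was lost without control replicate 2 or 3 or knockout replicate 3 (edgeR adjusted p 0.0662 to 0.0824). The 6 libraries form 2 groups of 3, so such values are high for any gene that differs between the groups with little spread, and they carry no test.

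Markers were read to check the cell type and because GPR65 and GPR4 are known from leukocytes and endothelium. Markers of the line were read first: VIM had 684.1 to 760.9 CPM, ESR1 was at 0, and PGR did not exceed 0.431 CPM. PGR had 0, 2 and 0 counts in the controls and 10, 12 and 8 in the knockout and was not tested. ERBB2 had 108.9 to 126.8 CPM and GATA3 29.5 to 38.4 CPM over the 6 libraries. The summed level of the 10 markers was 3166 to 3425 CPM in the controls and 2926 to 3165 CPM in the knockout. KRT18 fell (-0.28 ± 0.06, edgeR adjusted p = 0.013), a call lost without control replicate 2 or 3 or knockout replicate 3 (adjusted p 0.054 to 0.0843). The summed level of 14 leukocyte markers was 74.8 to 78.8 CPM in the controls and 207.0 to 213.1 CPM in the knockout, and 2 of the 5 tested rose. These were LAPTM5, a lysosomal protein of blood cells (1.51 ± 0.07, adjusted p = 1.71e-05), and LCP1, an actin-bundling protein also known in cancer lines. LAPTM5 had 63.3, 62.5 and 59.2 CPM in the controls and 187.1, 164.2 and 173.9 CPM in the knockout. Unlike for GPR65, replicate 1 was the highest of the knockout libraries for LAPTM5. LCP1 had 0.540, 2.98 and 2.54 CPM in the controls and 6.32, 31.99 and 29.8 CPM in the knockout, with replicate 1 lowest among the knockout libraries as for GPR65 (3.50 ± 0.65, adjusted p = 0.0091; 0.0538 without knockout replicate 3). The other 12 markers summed to 10.97 to 14.16 CPM in the controls and 9.485 to 13.61 CPM in the knockout. Of these, CSF1R was at 4.85 to 7.32 CPM, CD14 at 2.44 to 4.77 CPM and CORO1A at 0.911 to 3.85 CPM over the 6 libraries. CD48, CD53, MS4A1 and TYROBP were at 0 in every library, and the pan-leukocyte gene PTPRC was at 0.140 to 0.238 CPM in the controls and 0 in the knockout. The part of these markers in the level of GPR65 was not tested, and nothing is read from the order of the replicates. The 9 endothelial markers summed to 3.81 to 4.36 CPM in the controls and 3.05 to 5.53 CPM in the knockout, with 0 of the 2 tested genes past the threshold and EMCN and ERG at 0. In bulk RNA, a change in the number of cells that express a gene and a change in its RNA per cell cannot be told apart.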

How the data were processed

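Poly-A RNA of 3 control and 3 RNASEH2A knockout libraries of MDA-MB-231 was sequenced with strand-specific libraries, per the labels' protocols. The authors deposited raw read counts per gene symbol. Reads were handled with FastQC and STAR version 2 on GRCh38, per the submitters' processing notes. No source used here names the counter, the annotation or the strand setting. The authors also deposited log2 CPM values, whose filter and prior count are not given, and which served as an alternative only.

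Counts were tested with edgeR 4.0.16 (R 4.3.3; filterByExpr, TMM, quasi-likelihood, two-sided, Benjamini-Hochberg over 14199 genes, threshold 0.05). Of 25330 symbols, 3188 had no count. On data simulated over 14055 genes, 56.7%, 77.6% and 98.5% of genes changed 1.5-, 2- and 4-fold were recovered, and 7.74% of 168 calls were false. The simulation changed only 200 genes and drew each library independently around a common mean. The data had 1718 calls and a knockout library that stood apart, so these rates need not hold for them. Alternatives were DESeq2 1.42.0, limma 3.58.1 with voom, other scalings and filters, a replicate block, the deposited log2 values, and each library left out. Intervals, floors and errors cover these libraries only.

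Gene lengths, positions and shared sequence came from GENCODE 29 (GRCh38); promoters and gene order from RefSeq, where 14086 tested genes had a position, and promoter sequences were found for 6 of the 8 genes. Named genes were the 8 genes; up to 4 genes with the smallest p among those past the threshold in each list; the nearest tested neighbours of GPR65 and SLC16A7; the 5 genes most correlated (log2 CPM, prior count 2) with each of these 2; and markers past the threshold. CA12, LDHA, LDHB, HCAR1 and GPR132 were added for their function after their values were seen. The neighbours of EMB and BSG, and PRKACB, ARRB2, SEL1L, ERBB2 and GATA3, were also added after their values were seen. Some genes first listed are not reported here, and the lists are counted without them. The genes and lists were chosen with earlier results of these data known.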

Additional observations from a re-analysis of the deposited data

How the results depend on the processing

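The 3 genes of the set past the threshold, and the 25 of the 6 lists, were recounted under 14 alternatives. SLC16A7 and GPR65 kept their direction and their side of the threshold in all 14; SLC4A7 kept its direction in all 14 and its side in 10. With each library left out in turn, 2 to 5 genes of the set, 7 to 46 of the lists and 524 to 3430 of all genes passed, compared with 1718 of all genes in the full set; the highest counts came without knockout replicate 1. Of all genes 1055, 649 and 550 passed without control replicates 1, 2 and 3 and 524 without knockout replicate 3; of the lists 11 passed without control replicate 2 or knockout replicate 3 and 7 without control replicate 3. With no filter on low counts 4 genes of the set passed, SLC16A6 being added, and DESeq2 called 2088 genes in all. Of 32 genes outside the set that were named by the rules above and passed, 11 passed under every alternative and 21 did not under at least 1. SLC16A5 missed the threshold with limma-voom (adjusted p = 0.0557) and on the deposited log2 CPM (0.0537), LRIG3 on the latter (0.0501) and LCP1 with limma-voom (0.0651). The log2 fold change of SPATA7 ranged from -0.245 without knockout replicate 1 to 0.045 without knockout replicate 2, and was also above 0 without control replicate 1 (0.031); the cause was not tested. The median of all genes moved at most to 0.02 under another scaling. Replicate numbers were not stated to pair the groups. Deviations of same-numbered libraries correlated at 0.316, 0.139 and 0.086, and control replicate 3 correlated best with knockout replicate 2 (0.141). With the replicate number as a block, 3099 genes in all, 38 in the lists and 5 in the set passed. On the length of the longest coding transcript, the levels of BSG were 511.5 and 455.3 CPM per kb and those of SLC4A7 4.06 and 3.21. Depth limits SLC16A1, SLC16A6 and GPR4, which had 0 to 55 counts per library.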
